A study of Mus musculus with 9 samples.

Results

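The genes of activator protein 1 (AP-1), Fos, Fosb, Fosl1, Fosl2, Jun, Junb, Jund and Atf3, were examined in H3K27ac and H3K4me1 peak lists from mouse oviductal muscle cells. These 8 genes were chosen by name among 21853 protein-coding genes. All peaks that met a gene body or the 50 kb on either side were collected, 645 of the 848801 peaks in 8 lists. Each was sorted as a promoter peak, meeting the window of 1 kb either side of a start of a protein-coding transcript, as an intragenic peak, or as a flanking peak. The samples were primary oviductal muscle cells of WT mice, aged 8 to 12 weeks and mated with stud males, on day 2 of pregnancy. H3K27ac and H3K4me1 were each profiled in 3 replicates by ChIC-Seq (MNase joined to protein A is brought to the histone mark by its antibody and releases the chromatin there), beside 3 IgG control replicates. The cells of all groups were digested from the oviduct with trypsin, collagenase and dispase, plated for some hours in medium with serum and fixed, and no other genotype, day or uncultured tissue was analysed here. Peak lists existed for the 6 histone mark samples and for a pooled call of each mark, while the IgG libraries entered only as controls of those calls.

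AP-1 is a dimer of basic leucine zipper proteins. FOS proteins bind DNA only as partners of a JUN protein, JUN proteins also pair with each other, and ATF3 pairs with JUN proteins or with itself. The dimers recognise the 7-base TPA response element (TRE, TGACTCA, or TGAGTCA on the other strand), and dimers with an ATF protein also recognise the 8-base cyclic AMP response element (CRE, TGACGTCA). Fos, Fosb, Jun, Junb and Atf3 are known as immediate-early genes that serum, growth factors, stretch and stress induce through MAP kinases, SRF, which binds the CArG box, and CREB, which binds the CRE. In the myometrium AP-1 is known for its part in the expression of contraction genes. H3K27ac marks active promoters and enhancers, and H3K4me1 marks enhancers and the edges of promoters.

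The replicate calls used 40551842 to 78891920 fragments against 3110985 to 3713369 IgG fragments, and the larger library was scaled to the smaller one, so the IgG depth limited every call. The lists held 93660 to 152860 peaks, most of them weak, with a median fold enrichment over the local background of 1.43 to 1.62. H3K27ac replicate 1 was called against IgG replicate 1, which no H3K4me1 list used, and it was the longest list. H3K4me1 replicates 1 and 2 and H3K27ac replicate 2 were called against IgG replicate 2, and replicate 3 of both marks against IgG replicate 3. Lists that share a control are not fully independent of each other. Nothing in the labels ties a replicate to an animal, so p-values measure only the spread between these samples, and with 3 lists against 3 no p below 0.1 could be reached. Of 8 smooth muscle marker genes, Acta2 and Des had a promoter peak in all 6 replicate lists, Tagln in 5, and Myh11, Cnn1, Actg2, Lmod1 and Myocd in 1 to 3. Of 6 fibroblast and stroma markers, Col1a1, Col3a1, Dcn and Lum had one in all 6. Of 6 epithelial markers 0 had one in all 6 and Epcam and Pax8 had none. In the blood list Ptprc had H3K27ac in 3 lists while Csf1r, Cd3e and Cd79a had none, and 0 of 4 endothelial markers had one in all 6. H3K27ac was found in all 3 replicates at 2 of 8 muscle and 5 of 6 stroma markers, against 45.9% of all protein-coding genes, and the median promoter coverage by H3K27ac was 4.76% and 72.5%, against 15.6%. Promoters of stroma markers were thus marked more often than those of muscle markers in cells labelled as muscle cells, and the signals of different cell types cannot be told apart in these lists.

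All 8 AP-1 promoters carried H3K27ac in all 3 replicates, against 45.9% of protein-coding genes. Only Fosl1 and Junb carried H3K4me1 in all 3 replicates, which was the case for 27.9% of genes, and these were also the 2 AP-1 genes with both marks in all 6 lists, against 24.3% of genes. Fosb, Fosl2, Jun and Atf3 had H3K27ac in all 3 replicates and H3K4me1 in 0, a state of 4.19% of all genes and of 9.13% of the 10034 genes with H3K27ac in all 3. With weak peaks left out by a minimum −log10 p-value of 1.3, all 8 promoters still had H3K27ac in every replicate, against 30.2% of genes. Only Junb then kept H3K4me1 in every replicate, against 5.03% of genes.

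The share of the promoter windows covered by peaks, averaged over the 8 genes, was 84.3%, 81.4% and 87.9% in H3K27ac replicates 1, 2 and 3. In H3K4me1 replicates 1, 2 and 3 it was 13.1%, 6.69% and 7.28%. The means were 84.5% ± 3.26 and 9.02% ± 3.54 (SD, n = 3 each), a difference of 75.5 percentage points, and the lists of the marks did not overlap. Over all protein-coding genes the means were 29.7% ± 1.51 and 14.2% ± 0.944 (SD, n = 3 each). H3K27ac covered more of the promoter than H3K4me1 in every list at 7 of 8 AP-1 genes, the exception being Fosl1, and at 26.2% of all genes. In a two-sided exact permutation test of 14677 genes with any promoter peak, those 7 genes had p = 0.1, the smallest the design allows, with adjusted p = 0.240 (Benjamini-Hochberg over all tested genes). No gene passed an adjusted p of 0.05, and 6103 genes reached the raw p of 0.1.

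**Figure D1:**
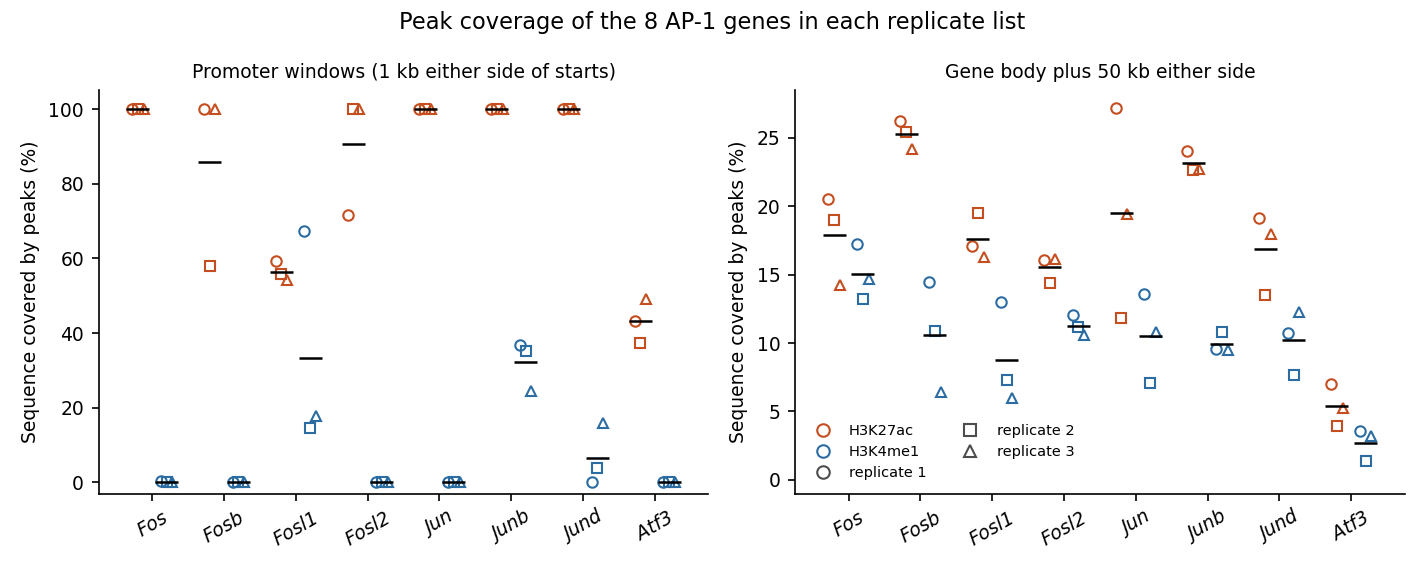
Percentage of sequence covered by peaks at each AP-1 gene in the 3 H3K27ac (orange) and 3 H3K4me1 (blue) replicate lists, in promoter windows on the left and in the gene body plus 50 kb either side on the right. Symbols are replicates and black bars are means over 3 lists, and at the promoters only the H3K27ac and H3K4me1 points of Fosl1 overlap.

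Fos encodes the founding FOS protein and lies at chr12:85473890-85477273 (GRCm38, plus strand). H3K27ac covered 100% of its promoter window in each of the 3 replicates. The peak ran from 2210, 2964 and 2138 bp upstream to 1141, 1184 and 1898 bp downstream of the start in replicates 1, 2 and 3. Its fold enrichment was 2.56, 2.13 and 2.36 in these replicates, so it stood above 70.1% to 95.5% of all marked promoters of a list. H3K4me1 met the window only in replicate 1, in a peak of 179 bp that touched its downstream edge and covered 0.4998% of it. The nearest H3K4me1 peaks left gaps of 3488, 8149 and 3225 bp around the start in replicates 1, 2 and 3. The sequence below is shown because it holds a CArG box, the SRF binding motif, 309 bp before the start and the first 6 bases of a CRE, TGACGT (the CRE hexamer), 66 bp before it, both in capitals. It spans chr12:85473560-85473859 on the plus strand, upstream of the annotated gene, and lay wholly within H3K27ac peaks of all 3 replicates and within 0 H3K4me1 peaks.
Fos promoter: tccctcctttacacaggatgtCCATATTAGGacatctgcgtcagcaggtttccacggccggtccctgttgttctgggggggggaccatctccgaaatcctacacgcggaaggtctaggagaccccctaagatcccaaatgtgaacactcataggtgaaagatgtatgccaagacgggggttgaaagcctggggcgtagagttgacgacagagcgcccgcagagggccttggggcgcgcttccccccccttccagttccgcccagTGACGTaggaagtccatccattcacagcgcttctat

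Fosb, whose product pairs with JUN proteins as FOS does, lies at chr7:19302696-19310051 (minus strand). H3K27ac covered 100%, 57.9% and 100% of its promoter windows in replicates 1, 2 and 3. In replicate 2 the call was split into peaks of 351 and 1638 bp, and the start lay in a gap of 706 bp between them, while replicates 1 and 3 had 1 peak each of 3837 and 3778 bp across the start. The strongest peak had a fold enrichment of 2.36, 2.31 and 2.63. H3K4me1 covered 0% in each replicate, and the nearest H3K4me1 peaks lay 6375 to 6887 bp upstream and 8063 to 8236 bp downstream. The Fosb promoter, like that of Fos, held a CArG box and the CRE hexamer TGACGT, 266 and 317 bp before the start. The stretch shown is chr7:19310292-19310391, read on the minus strand, with both matches in capitals, and H3K27ac covered 100%, 17.0% and 100% of it.
Fosb promoter: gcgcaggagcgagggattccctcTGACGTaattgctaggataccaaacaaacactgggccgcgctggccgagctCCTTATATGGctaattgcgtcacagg

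Fosl1 (FRA-1) and Fosl2 (FRA-2) encode the Fos-related antigens, which lack the transactivation domain of FOS. Fosl1, at chr19:5447547-5455946 (plus strand), was the only AP-1 gene at which the promoter coverage by the marks overlapped between lists. H3K27ac covered 59.2%, 55.9% and 54.2% of them, and H3K4me1 covered 67.5%, 14.6% and 17.7%, in replicates 1, 2 and 3 (exact permutation test, two-sided, p = 0.4, adjusted p = 0.602). The overlap came from H3K4me1 replicate 1, and without that list the difference of the means was 40.3 percentage points in place of 23.2, while it was 13.8 without H3K4me1 replicate 2 and 15.4 without replicate 3. Its H3K27ac peaks of 1604, 1787 and 1839 bp began 119, 48 and 11 bp before the start and lay almost wholly inside the gene. The H3K4me1 peaks of 1457, 315 and 382 bp lay across the start in all 3 replicates, which held for no other AP-1 gene. The H3K27ac fold enrichment of Fosl1, 2.17, 1.93 and 2.15, was the lowest of the 8 genes by its mean of 2.08 ± 0.136 (SD, n = 3), next to Atf3 at 2.16 ± 0.130, and the replicates of these 2 genes overlapped.

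Fosl2, at chr5:32135801-32157842 (plus strand), had a wide promoter domain. Its H3K27ac peak of 7998, 10342 and 9762 bp in replicates 1, 2 and 3 reached 7564, 6655 and 7689 bp into the gene. The fold enrichment of 2.47, 2.46 and 2.42 varied least between replicates among the 8 genes. H3K4me1 covered 0% of the promoter window in each replicate. Upstream, the nearest H3K4me1 peaks ended 1374, 1222 and 32190 bp before the start in replicates 1, 2 and 3. Downstream, H3K4me1 began 4801, 4398 and 3935 bp after the start, inside the part of the gene that H3K27ac also covered. The last 60 bases before the start (chr5:32135741-32135800, plus strand), shown for the CRE hexamer 18 bp before the start, were covered by H3K27ac in all 3 replicates.
Fosl2 promoter: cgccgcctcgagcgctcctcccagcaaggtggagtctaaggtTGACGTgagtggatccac

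Jun encodes the main dimer partner of the FOS proteins and lies at chr4:95049034-95052222 (minus strand), with the antisense gene Junos beginning beside it. H3K27ac covered 100% of the promoter window in each replicate, in peaks of 6693, 5565 and 6407 bp that took in 100%, 93.8% and 95.01% of the gene. Fold enrichment was 2.33, 2.36 and 2.53. H3K4me1 covered 0% of the window, and its nearest peaks ended 2195, 1354 and 2112 bp upstream of the start in replicates 1, 2 and 3, within or next to the edge of the H3K27ac peak. On the other side the nearest H3K4me1 peak lay 10889 to 16920 bp downstream. The stretch chr4:95052253-95052542, read on the minus strand and inside an intron of Junos, is shown for the octamer TGACATCA 45 bp before the start, known as an AP-1 site through which JUN acts on its own gene, and for the CRE hexamer ACGTCA, on the other strand, 304 bp before it.
Jun promoter: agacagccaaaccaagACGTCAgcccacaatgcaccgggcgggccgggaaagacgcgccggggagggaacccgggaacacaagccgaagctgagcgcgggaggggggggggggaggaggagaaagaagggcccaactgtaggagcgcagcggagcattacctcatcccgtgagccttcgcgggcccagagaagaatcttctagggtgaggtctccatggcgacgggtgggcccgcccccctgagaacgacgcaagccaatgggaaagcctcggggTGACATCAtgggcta

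Junb, which often opposes JUN, lies at chr8:84974484-84978718 (minus strand) and had the widest H3K27ac promoter peak of the 8 genes. It measured 12117, 15905 and 12435 bp in replicates 1, 2 and 3, wider than 99.2% to 99.7% of the promoter peaks of these lists. It began 8487, 12866 and 8578 bp upstream and ended 3629, 3038 and 3856 bp downstream of the start, and in replicate 2 it also took in the promoter of Hook2. Its fold enrichment was 2.66, 2.34 and 2.49. H3K4me1 covered only the upstream part of the promoter window, 36.7%, 35.2% and 24.6% of it. Those H3K4me1 peaks of 3983, 4101 and 2786 bp stopped 266, 297 and 509 bp before the start, and the start itself was in 0 of 3 H3K4me1 lists. Their fold enrichment of 2.06, 1.93 and 1.95 stood above 83.5% to 92.7% of promoters with H3K4me1. None of the motifs searched was found within 1 kb of the Junb start.

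Jund, the member that is expressed most constantly in other cells, lies at chr8:70698949-70700616 (plus strand) and has a single exon. H3K27ac covered 100% of the window and of the gene in each replicate, in peaks of 8290, 4416 and 9264 bp. In replicates 1 and 3 the peak reached the promoter of the neighbour Iqcn. H3K4me1 covered 0%, 3.75% and 15.9% of the window in replicates 1, 2 and 3, always on the upstream side, where the nearest peaks ended 1081, 926 and 682 bp before the start. The bases chr8:70698689-70698788 (plus strand) are shown for the full CRE, 214 bp before the start, which was found at no other AP-1 start.
Jund promoter: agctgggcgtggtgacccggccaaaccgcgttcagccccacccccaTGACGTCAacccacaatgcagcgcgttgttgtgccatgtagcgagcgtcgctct

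Atf3, a stress-induced partner of JUN that often represses, lies at chr1:191170296-191218039 (minus strand). Its starts fall into 2 groups 34.7 kb apart, and only the proximal one was marked. H3K27ac covered the proximal start (position 191183340) in all 3 replicates, in peaks of 4568, 1495 and 4659 bp with fold enrichment of 2.29, 2.03 and 2.17. The distal start (position 191218039) was in 0 of 6 replicate lists, and its nearest H3K27ac peaks ended 4826, 5338 and 5221 bp upstream. As both start groups enter the promoter windows, H3K27ac covered 43.4%, 37.4% and 49.1% of them and H3K4me1 covered 0% in each replicate. The pooled H3K4me1 list, which was called on all 3 replicates together and is not a further replicate, had a peak that ended 315 bp upstream of the proximal start. It also met the windows of Fos, Fosl1, Junb and Jund, and not those of Fosb, Fosl2 and Jun.

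**Figure D2:**
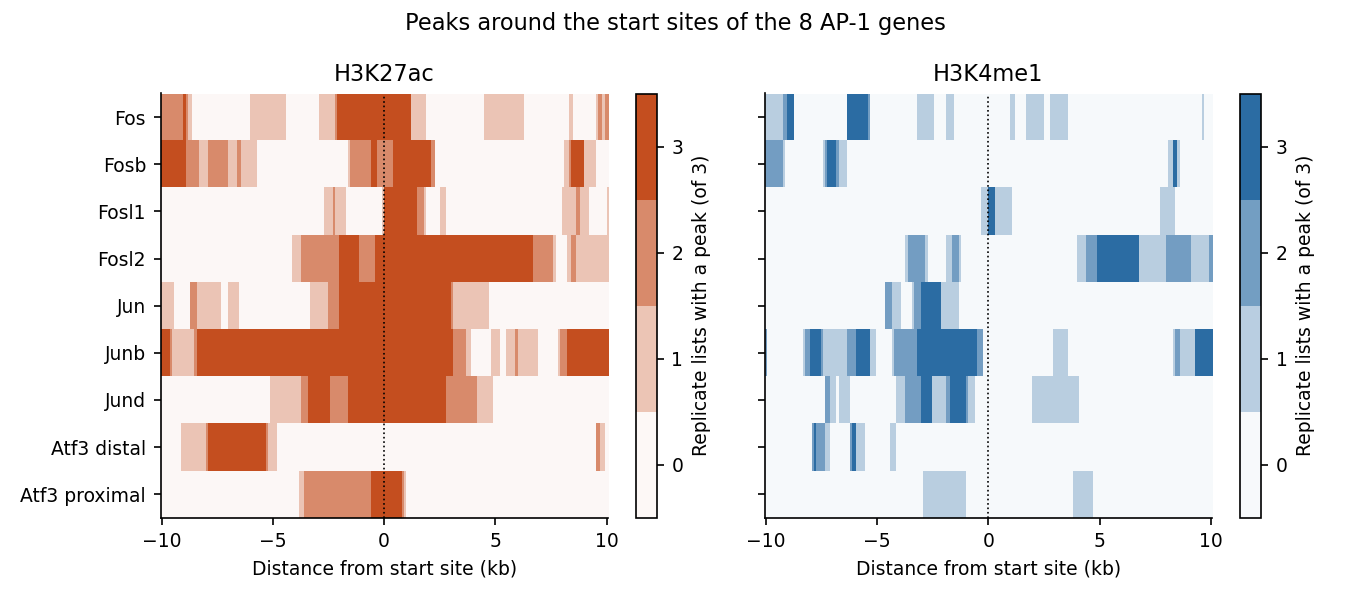
Number of replicate lists, 0 to 3, with a peak at each point from 10 kb upstream to 10 kb downstream of the start groups of the 8 AP-1 genes, for H3K27ac on the left and H3K4me1 on the right. H3K27ac lies across every start but the distal one of Atf3, at Fosb in 2 of 3 lists only. H3K4me1 lies across the start of Fosl1 only and beside the starts of Fosl2, Jun, Junb and Jund.

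By the median over the 8 genes, the H3K27ac promoter peaks exceeded those of all marked promoters in width and fold enrichment in each replicate. Their median width was 5630.5, 4282.5 and 5533 bp in replicates 1, 2 and 3, against 1942, 2011 and 1752 bp over all genes with a promoter peak in the list. Their median fold enrichment was 2.35, 2.28 and 2.39, against 2.02, 1.98 and 2.02. By mean width Junb came first with 13486 bp ± 2101 (SD, n = 3), before Fosl2 with 9367 ± 1221, Jund with 7323 ± 2564 and Jun with 6222 ± 586. The widths of Junb exceeded those of all 7 other genes in every replicate, while those of Fosl2 and Jund, and of Jund and Jun, overlapped. Fosl1, with 1743 bp ± 123, was the only member whose mean width lay near the median of all marked promoters. Single peaks narrower than that median were those of Fosl1 in replicates 1 and 2 and of Fosb and Atf3 in replicate 2, and the Fosl1 peak in replicate 2 also lay below the median in fold enrichment. In height, 7 of the 8 had means of 16.5 to 20.98 times the genome-wide mean and Fosl1 had 12.6 ± 1.39 (SD, n = 3), beside medians of 11.4 to 12.4 over all marked promoters.

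**Figure D3:**
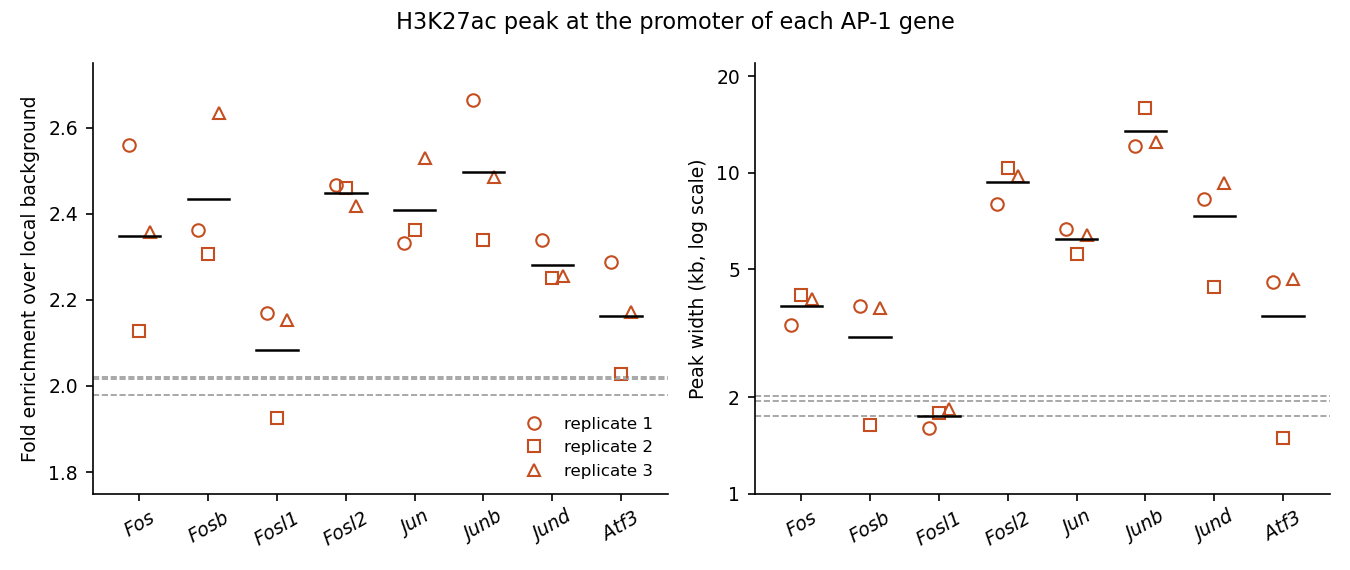
Fold enrichment (left) and width on a log scale (right) of the strongest H3K27ac promoter peak of each AP-1 gene, with a symbol per replicate, a black bar for the mean of 3 and dashed grey lines for the median of all marked promoters in each list. Most widths sit well above the dashed lines, up to 15905 bp at Junb, and those of Fosl1, and of Fosb and Atf3 in replicate 2, do not.

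The windows of 1 kb either side of the 9 AP-1 start groups were searched for 5 motifs on both strands and compared with 32526 start groups of all protein-coding genes. The full CRE was found at 1 of 9 AP-1 starts and at 3.31% of all starts. The CRE hexamer, TGACGT or ACGTCA, which is also part of the full CRE, was found at 7 of 9 and at 22.6%. A CArG box stood at 2 of 9 starts and 9.60% of all, the TRE at 3 of 9 and 25.5%, and the octamer TGACATCA, or TGATGTCA on the other strand, at 1 of 9 and 9.84%. The TRE matches lay downstream of the starts, 53 bp into Fosl2, 350 bp into Fosl1 and 549 bp from the proximal Atf3 start. The CRE hexamer and the octamer were added to the search after the sequences were seen. A match describes the letters of a window and does not show that a protein binds there.

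Over the whole AP-1 loci, promoters included, H3K27ac also covered more than H3K4me1, and the difference was smaller in sequence away from the starts. In the gene bodies plus 50 kb on either side, the mean coverage of the 8 loci was 19.6%, 16.3% and 17.0% in H3K27ac replicates 1, 2 and 3 and 11.8%, 8.68% and 9.17% in H3K4me1 replicates. The means were 17.6% ± 1.76 and 9.87% ± 1.66 (SD, n = 3 each), where the loci of all protein-coding genes had 6.51% ± 0.847 and 6.21% ± 0.304. H3K27ac exceeded H3K4me1 in every list at 6 of 8 loci, against 18.3% of genes. Those 6 had p = 0.1 in the two-sided exact permutation test and adjusted p = 0.299 over 20623 genes, and no gene passed an adjusted p of 0.05 while 6895 reached the raw p of 0.1. In sequence farther than 1 kb from every coding start, a measure added after seeing the data, H3K27ac covered 14.4% ± 1.60 of the 8 loci and H3K4me1 9.69% ± 1.59 (SD, n = 3 each), and the lists did not overlap, while all genes had 4.78% ± 0.791 and 5.67% ± 0.254. H3K27ac exceeded H3K4me1 in every list at Fosb, Fosl2 and Junb, against 7.07% of genes. Farther than 5 kb from every coding start, where 27.6 to 117.7 kb of a locus remained, the values were 12.7% ± 1.71 and 10.2% ± 1.90, the lists overlapped, and the order held in every list at Fosb and Junb only, against 5.7% of genes. At Fosb the coverage there was 29.5%, 26.0% and 30.5% by H3K27ac and 14.9%, 13.2% and 12.2% by H3K4me1. Over the whole loci the marks overlapped at Fos and at Jun. At Fos, H3K27ac covered 20.5%, 18.99% and 14.2% and H3K4me1 17.2%, 13.2% and 14.6% of the locus (exact p = 0.3, adjusted p = 0.561). At Jun the H3K27ac replicates ranged from 11.8% to 27.2%, the widest spread of the 8 loci (exact p = 0.2, adjusted p = 0.443). Between lists called against the same IgG library, the difference of the 8-gene means was 6.06 percentage points for IgG replicate 2 and 7.84 for IgG replicate 3, and the promoter difference was 71.5 and 80.6.

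By the mean over replicates Fosb had the highest locus coverage by H3K27ac, with 26.2%, 25.4% and 24.2%, followed by Junb with 24.0%, 22.7% and 22.7%. These do not overlap each other, but Jun replicate 1 lay above both, and both windows hold promoters of neighbours, 7 coding neighbours at Fosb and 9 at Junb. The Fos, Fosl2 and Jun windows hold no other protein-coding gene. Atf3 had the lowest coverage by either mark, 6.97%, 3.95% and 5.23% for H3K27ac and 3.59%, 1.38% and 3.19% for H3K4me1, where the medians of all loci were 4.97% and 4.45%. Of the 479 peaks that the 6 replicate lists held in the 8 loci, 34 were promoter, 30 intragenic and 415 flanking peaks. Among the flanking peaks 83 met the promoter of another protein-coding gene, 163 lay in another gene and 169 were intergenic.

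Regions that carried both marks away from promoters were taken where at least 2 of 3 replicates of each mark had a peak and no promoter window of a protein-coding gene was touched. The 8 loci held 42 of 43644 such regions in the genome, with a median width of 589 bp against 429 bp. The count was 25 when all 3 replicates of each mark were required and 12 when weak peaks were left out as above. A locus of an AP-1 gene held a median of 5 and that of any protein-coding gene a median of 1. The counts were 6 at Fos, 9 at Fosb, 5 at Fosl1, 7 at Fosl2, 5 at Jun, 4 each at Junb and Jund and 2 at Atf3. Of the 42 regions 23 met a peak in all 6 lists and 30 lay upstream of their gene. Shares for these counts over all regions of the genome, and genome totals at the stricter settings, are not given here. The counts alone thus do not set these loci apart. Neighbouring regions may belong to 1 peak, so they are not independent of each other, and no data here tie a region to the gene it lies near. The fold enrichment given for a region is that of the strongest whole peak that meets it, so regions on 1 peak share a value.

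**Figure D4:**
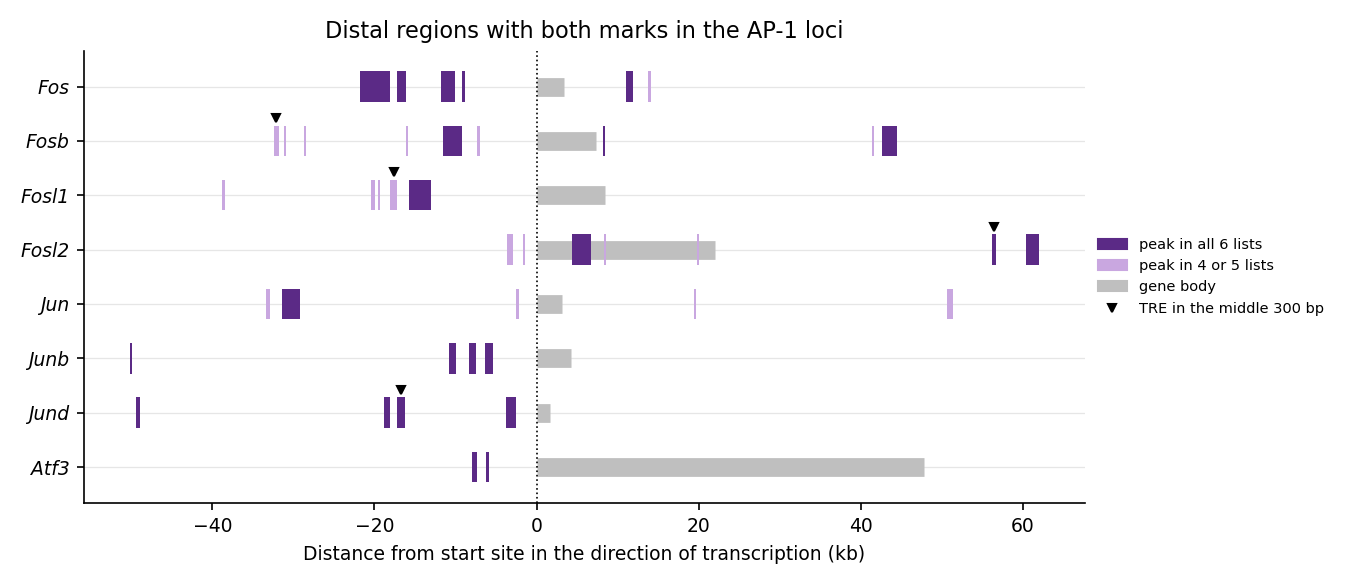
The 42 distal regions with both marks, drawn by distance from the nearest start group of each AP-1 gene in kb along the direction of transcription, dark where a peak was found in all 6 lists and pale where in 4 or 5. Grey bars are gene bodies, triangles mark the 4 regions with a TRE in their middle 300 bp, and regions under 250 bp are drawn 250 bp wide.

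The Fos locus is free of other protein-coding genes and held the widest of these regions, of 3703 bp, centred 19.98 kb upstream (chr12:85452062-85455764, intergenic). Its H3K27ac fold enrichment was 2.43, 2.27 and 2.33 and its H3K4me1 fold enrichment 1.99, 2.03 and 1.92 in replicates 1, 2 and 3. In the pooled lists these peaks stood above 97.5% of H3K27ac and 95.5% of H3K4me1 peaks. Others included regions 16.7 and 9.06 kb upstream and 11.5 and 14.0 kb downstream.

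Of the 9 Fosb regions those farthest from the start lay in the noncoding gene D830036C21Rik upstream and in Vasp downstream. The widest, 2364 bp at chr7:19319270-19321633, lay 10.4 kb upstream in D830036C21Rik and met a peak in all 6 lists. A region of 525 bp lay 32.1 kb upstream (chr7:19341885-19342409), at an exon of D830036C21Rik, with H3K27ac fold enrichment of 2.31, 2.00 and 2.16 and H3K4me1 fold enrichment of 1.87 and 1.71 in replicates 1 and 2, and no H3K4me1 peak in replicate 3. Its middle 300 bp (chr7:19341997-19342296, read on the minus strand) held a TRE, in capitals.
Fosb 32.1 kb upstream: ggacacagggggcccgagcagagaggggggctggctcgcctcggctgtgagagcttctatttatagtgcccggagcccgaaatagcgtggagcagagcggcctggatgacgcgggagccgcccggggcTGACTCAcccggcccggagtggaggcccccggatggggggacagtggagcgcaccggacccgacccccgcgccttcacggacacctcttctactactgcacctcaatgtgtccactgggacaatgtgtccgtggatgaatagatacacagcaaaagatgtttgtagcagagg

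At Fosl1 all 5 regions lay upstream, toward Drap1 and AI837181. The widest, 2678 bp at chr19:5431790-5434467, was intergenic, 14.4 kb upstream, and met a peak in all 6 lists, with H3K27ac fold enrichment of 1.97, 2.04 and 2.13 and H3K4me1 of 1.80, 1.90 and 1.83. A region of 907 bp 17.6 kb upstream (chr19:5429472-5430378, intergenic) had no H3K27ac peak in replicate 1. Its middle 300 bp (chr19:5429775-5430074, plus strand) held a TRE.
Fosl1 17.6 kb upstream: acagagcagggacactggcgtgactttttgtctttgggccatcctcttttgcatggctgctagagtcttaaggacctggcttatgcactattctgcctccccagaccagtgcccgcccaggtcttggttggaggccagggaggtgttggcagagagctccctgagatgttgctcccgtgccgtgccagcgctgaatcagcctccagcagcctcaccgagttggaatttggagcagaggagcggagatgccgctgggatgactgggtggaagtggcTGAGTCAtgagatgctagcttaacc

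Of the 7 Fosl2 regions 2 lay upstream, 3 inside the gene and 2 far downstream. The upstream ones, of 244 and 845 bp, were centred 1.50 and 3.28 kb before the start and had no H3K4me1 peak in replicate 3. The one 5.58 kb after the start, 2370 bp in an intron (chr5:32140199-32142568), lay within the H3K27ac peak of the promoter, in replicate 2 for 95.3% of its length, and had H3K4me1 fold enrichment of 1.90, 2.01 and 1.95. Intergenic regions of 602 and 1639 bp stood 56.4 and 61.2 kb after the start, beyond the end of the gene, in all 6 lists. The former (chr5:32191939-32192540) had fold enrichment of 1.99, 2.12 and 2.06 for H3K27ac and 2.18, 1.90 and 2.08 for H3K4me1, and the replicate ranges of the marks overlapped. Its middle 300 bp (chr5:32192089-32192388, plus strand) held a TRE. H3K4me1 replicate 3 covered 28.3% of this stretch, and each other replicate list covered 100%.
Fosl2 56.4 kb downstream: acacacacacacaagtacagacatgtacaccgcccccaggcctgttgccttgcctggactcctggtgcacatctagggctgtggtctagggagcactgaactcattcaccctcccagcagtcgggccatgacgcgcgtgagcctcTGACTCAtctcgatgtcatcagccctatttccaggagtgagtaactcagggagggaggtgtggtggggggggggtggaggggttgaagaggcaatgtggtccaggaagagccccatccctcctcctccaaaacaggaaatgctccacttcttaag

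At Jun the region with the highest mean H3K4me1 fold enrichment lay 30.3 kb upstream in an intron of Junos (2170 bp, chr4:95081418-95083587). H3K4me1 fold enrichment there was 2.10, 2.01 and 2.22 and H3K27ac fold enrichment 1.80, 1.93 and 2.04. Its pooled H3K4me1 peak had a fold enrichment of 2.65, above 99.8% of the 105706 peaks of that list, and its pooled H3K27ac peak stood above 91.5% of its list. A region of 463 bp stood 2.34 kb upstream of the start, at the edge of the promoter peak, where H3K27ac replicate 1 had no peak.

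At Junb the H3K27ac peak of the promoter ran over the regions 5.82 and 7.87 kb upstream, of 994 and 863 bp, and a region of 848 bp followed 10.4 kb upstream, between Junb and Hook2. All of the 4 Junb regions met a peak in 6 lists, as did the 4 of Jund. Jund had a region of 1235 bp 3.15 kb upstream and regions of 947 and 804 bp 16.7 and 18.5 kb upstream, all intergenic. The region 16.7 kb upstream (chr8:70681736-70682682) had H3K27ac fold enrichment of 1.92, 2.27 and 1.79 and H3K4me1 fold enrichment of 2.26, 2.02 and 1.82. Its middle 300 bp (chr8:70682059-70682358, plus strand), which lay wholly within peaks of all 6 lists, held a TRE.
Jund 16.7 kb upstream: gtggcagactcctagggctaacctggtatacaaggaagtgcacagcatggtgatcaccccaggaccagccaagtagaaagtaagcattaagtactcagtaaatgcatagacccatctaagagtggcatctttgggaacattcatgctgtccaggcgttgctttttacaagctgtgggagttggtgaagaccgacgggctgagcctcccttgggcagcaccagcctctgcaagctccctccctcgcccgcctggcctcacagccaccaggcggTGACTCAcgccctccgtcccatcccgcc

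At Atf3 the 2 regions, of 363 and 578 bp, lay 6.09 and 7.65 kb upstream of the distal start, the one without peaks of its own. H3K27ac fold enrichment there was 2.21, 2.37 and 2.45, above that of the proximal promoter in replicates 2 and 3 and below it in replicate 1. H3K4me1 fold enrichment was 1.78, 1.82 and 1.96 in the nearer region. The farther one lay at the noncoding gene D730003I15Rik.

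A TRE was found in the middle 300 bp of 4 of 42 regions, 9.52% (95% Wilson interval 3.77% to 22.1%, for counting error only), and in 8.37% of the 43644 regions of the genome. Over the whole regions it was found in 7 of 42, 16.7%, against 16.5%. Among the 25 regions found with all 3 replicates required, the middle 300 bp held it in 0 of 25, against 8.85%. The TRE 16.7 kb upstream of Jund lay within peaks of all 6 lists but not in such a middle. The full CRE was found in 0 of 42 and in 0.225% of all regions by their middle 300 bp, and the CArG box in 1 of 42 and in 1.90%. The CRE hexamer was found in the middle of 3 of 42 regions, 7.14% (95% Wilson interval 2.46% to 19.01%), against 3.10% of all. Over the whole regions, which are wider here than in the genome, it was found in 7 of 42 against 6.72%. The octamer was found in the middle of 2 of 42 and of 1.93%.

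Genes that work with AP-1 were read by the same promoter windows, in lists of known pathway genes. Of 13 further bZIP genes that can pair with AP-1 proteins or bind like sites, 8 had H3K27ac in all 3 replicates and 4 had H3K4me1 in all 3, where 45.9% and 27.9% of all genes did. Atf2, Atf7, Mafg and Mafk had a promoter peak in all 6 lists, and Batf3 and Nrl had none. Their median promoter coverage was 44.9% by H3K27ac and 7.36% by H3K4me1, beside 15.6% and 4.47% over all genes and 95.3% and 0.0833% over the 8 AP-1 genes. Of 12 kinases of the MAP kinase cascades that activate AP-1, 10 had H3K27ac and 7 had H3K4me1 in all 3 replicates. Map2k4, Map2k7, Mapk14, Mapk8 and Mapk9 had both marks in all 6 lists, and 0 of the 12 lacked a peak in every list. All 9 upstream factors of the AP-1 genes had H3K27ac in all 3 replicates, among them Creb1, Crem, Elk1, Elk4 and Srf, which also had H3K4me1 in all 3.

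Of 10 genes of the feedback on the pathway, 9 had H3K27ac in all 3 replicates. Dusp1, which removes phosphate from MAP kinases, Zfp36, which promotes decay of early-gene mRNA, Cops5 and Fbxw7 had both marks in all 6 lists. Dusp4, Dusp5, Dusp6 and Spry2, picked out here after their values were seen, had H3K27ac in all 3 and H3K4me1 in 0 replicates, as Fosb, Fosl2, Jun and Atf3 had. Of 14 known AP-1 target genes 7 had H3K27ac and 7 had H3K4me1 in all 3 replicates, beside the same shares of 45.9% and 27.9%. The adhesion genes Cd44 and Itgb1, the protease inhibitor gene Timp1 and Vegfa had both marks in all 6 lists, and the metalloproteinase gene Mmp9 had none. H3K27ac coverage lay above H3K4me1 in every list at 9 of 10 feedback genes, 8 of 9 upstream factors, 5 of 13 bZIP genes, 5 of 14 targets and 4 of 12 kinases, beside the 26.2% of all genes given above.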

How the data were processed

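The labels name cutadapt, Bowtie2 and MACS2 and the build GRCm38.p5. Per the file headers the authors called broad peaks with MACS 2.2.7.1 on paired-end fragments, with p-value cutoffs of 0.05 for strong and 0.1 for weak regions, and scaled the larger library to the smaller. The deposited pileup is thus a coverage signal at IgG depth, and the deposited fold enrichment is its ratio to the local background, with MACS adding 1 to both. P-values were deposited as −log10, and the q-value column was not used. How duplicates were handled is not given in the sources used here. The IgG samples had no lists, and the pooled calls were used as descriptions only.

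Genes were taken from GENCODE release 21 for mouse and sequences from the GRCm38 reference genome of RefSeq. Coverage was the share of a window inside the union of a list's peaks, 1 value per list. Marks were compared gene by gene by exact permutation of the 6 lists (20 ways, two-sided), adjusted by Benjamini-Hochberg over all protein-coding genes with any coverage. Height is the pileup over the mean fragment coverage of the genome, from the fragment number and length in the header and the effective genome size. Percentiles rank a value within its own list. The rule for named genes took the 8 members, neighbours met by a counted peak, and genes of the pathway and marker lists with a promoter peak in all 6 lists or in none. Not all of these genes and distal regions are reported here. The members, the gene lists and the measures were chosen with earlier results of these data known. Interval sums, consensus runs and the permutation test were checked on simulated data. Python 3.11.15, numpy 2.4.6, pandas 2.3.3 and scipy 1.17.1 were used. Peak filters, windows, starts, flanks, single lists, IgG libraries, the sequence of the loci counted and the pairing of replicate numbers were varied.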

Additional observations from a re-analysis of the deposited data

How the results depend on the processing

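Of 93 alternative values of the summary results 81 stayed within 1 SD of the replicate spread, within 1.5 times a count or, for the TRE share, within its interval, and none changed sign. Part of the 81 could not have moved. The count of genes at an adjusted p below 0.05 was bound to be 0. Leaving out a list of 1 mark cannot change a count of the other mark, and the replicate block keeps the mean differences. The 81 is therefore no measure of robustness. H3K27ac was found at all 8 promoters under every alternative run. The promoter difference between marks ranged from 73.8 to 77.5 percentage points without single lists and the locus difference from 6.77 to 8.72. The count of promoters with H3K4me1 in all 3 replicates was 2 to 3 without single lists, 1 at a minimum −log10 p-value of 1.3, 1 with windows of 250 bp and 5 with windows of 3 kb. The promoter difference was 52.5 with windows of 3 kb, 67.3 with the starts of all transcripts and 80.6 within IgG replicate 3, and the locus difference was 13.0 with flanks of 20 kb. The locus difference was 4.72 and 2.42 in sequence farther than 1 kb and 5 kb from coding starts, and these 2 alternatives were chosen after seeing the data. The 42 distal regions became 25 when all 3 replicates of each mark were required and 12 at the minimum −log10 p-value of 1.3, and 29 to 40 without single lists. With all 3 replicates required, the TRE was found in the middle 300 bp of 0 of 25 regions, 0% against 8.85% of such regions in the genome. The Fosb and Fosl1 regions with a TRE each lacked a peak in 1 list, and for the other 2 the cause was not tested. Of 248 values for single genes 4 changed sign, toward more H3K4me1. These were the Fos locus within IgG replicate 3, with a difference of -0.40, and, farther than 5 kb from coding starts, the loci of Fos with -0.26, Fosl1 with -3.71 and Fosl2 with -1.23. With a replicate block over same-numbered lists the differences were 75.5 and 7.77, and no p can then go below that of the smallest number of sign changes, so no gene could be called. Deviations of same-numbered lists correlated over genes at r = -0.0023, 0.32 and 0.42 for promoters. As the first lies under 0.1, the numbers were not taken to pair the samples, and the same-numbered lists 2 and 3 also share an IgG library. The depth of the IgG libraries limits the weak peaks, and a gene without a peak is one in which none was detectable at this depth.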
